A study of Mus musculus with 2 samples.

Results

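Forkhead transcription factors share a winged-helix DNA-binding domain, in which a recognition helix enters the major groove. The 9 forkhead genes described here are Foxa1, Foxa2, Foxb1, Foxo1, Foxo3, Foxp1, Foxp2, Foxp4 and Foxk2. They were found by symbol, through the GENCODE annotation, among the 69691 rows of each gene table, and all 9 were present with 1 row each. The rest of the forkhead family list, 35 genes, served as the comparison. The data are total RNA sequencing of the midbrain of B6NCrl mice on postnatal day 0, with 1 library from a single midbrain of pup 1 (replicate 1) and 1 from pup 3 (replicate 2). No genetic change or treatment is labelled, so the series is 1 group with 2 animals, which carry the same donor identifier. The labels name mirVana extraction from 10 ng of starting material, RNA longer than 200 nt, and a SMARTer Ultra Low kit, whose manual is linked. A single group allows no contrast of conditions, and 2 libraries define no pattern across conditions by which other genes could be ranked for likeness.

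FoxA factors open closed chromatin and are required for the floor plate and for midbrain dopamine neurons. FoxO factors are held in the cytoplasm when insulin and growth factor signalling is active, and switch on genes of stress resistance and cell cycle arrest when it is low. FoxP factors act mostly as repressors in neurons, bind DNA as dimers with one another, and Foxp2 is known for its part in vocal learning. Foxb1 marks the mammillary region, the thalamus and parts of the brainstem in the embryo, and Foxk2 is a widely expressed repressor.

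What the classes other than FoxA have in common in sequence is shown by the coding bases around the recognition helix of 5 of the genes. For each, 16 codons (48 bases, sense strand, 5′ to 3′) were read from GENCODE M21 transcripts on GRCm38, and the capitals mark the 5 codons of the motif by which the helix was located.

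Foxb1: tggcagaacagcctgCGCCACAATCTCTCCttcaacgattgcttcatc
Foxo1: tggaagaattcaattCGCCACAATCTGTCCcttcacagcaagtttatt
Foxo3: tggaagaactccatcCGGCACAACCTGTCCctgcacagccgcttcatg
Foxp4: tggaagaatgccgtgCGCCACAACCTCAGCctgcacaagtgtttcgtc
Foxk2: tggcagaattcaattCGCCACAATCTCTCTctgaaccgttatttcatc

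Of the 16 codons, 8 encode the same residue in these 5 genes. The 8 include the 5 motif codons, whose likeness follows largely from the search, and the matches below include them too. Foxo1 and Foxo3, of the same class, matched at 37 of 48 bases and 14 of 16 residues, and genes of different classes at 29 to 37 bases and 9 to 12 residues. The stretch lies within 1 exon in Foxb1 (chr9:69760031-69760078, minus strand). In the other 4 genes an intron lies inside it, so its first and last bases span more of the genome. These spans are chr3:52269417-52345080 for Foxo1 and chr11:121290885-121296070 for Foxk2, on the plus strand. On the minus strand they are chr10:42197860-42274821 for Foxo3 and chr17:47871310-47874640 for Foxp4.

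The libraries held 36934868 expected counts in pup 1 and 40769103 in pup 3. An expected count is the estimated number of reads assigned to a gene, and TPM, the transcript level, divides it by effective length and rescales every library to the same sum. Levels are given in TPM for each pup, then as mean ± SD (n = 2). Of 8 midbrain markers 7 reached 1 TPM in each pup, the exception being En2 at 0.88 TPM in pup 1 and 0.74 in pup 3. Of 5 hindbrain Hox genes 4 had no read in either pup, and Hoxb2 had 1 count, in pup 3. Hypothalamic markers were all 6 at 1 TPM or more, with a summed level of 145 TPM in pup 1 and 322 in pup 3. For the Y-linked gene Ddx3y there were 2618 counts in pup 1 against 0 in pup 3, and sex was not collected, so sex and individual cannot be told apart in any difference between the pups.

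All 9 genes reached 1 TPM in each pup, a level reached by 62.1% of the 21474 protein-coding genes in the tables and by 15 of the other 35 forkhead genes (42.9%). The 9 were chosen with earlier results of these data known, so these shares do not show that they stand out. Foxp2 and Foxp1 were the most abundant, Foxp4 followed, Foxb1 and Foxk2 were intermediate, and the FoxO and FoxA genes were low. The plot of the 9 levels by pup shows this order. In tissue RNA, fewer cells of a type and less RNA per cell cannot be told apart, so a low level does not say whether a gene is weak everywhere or strong in few cells.

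**Figure D1:**
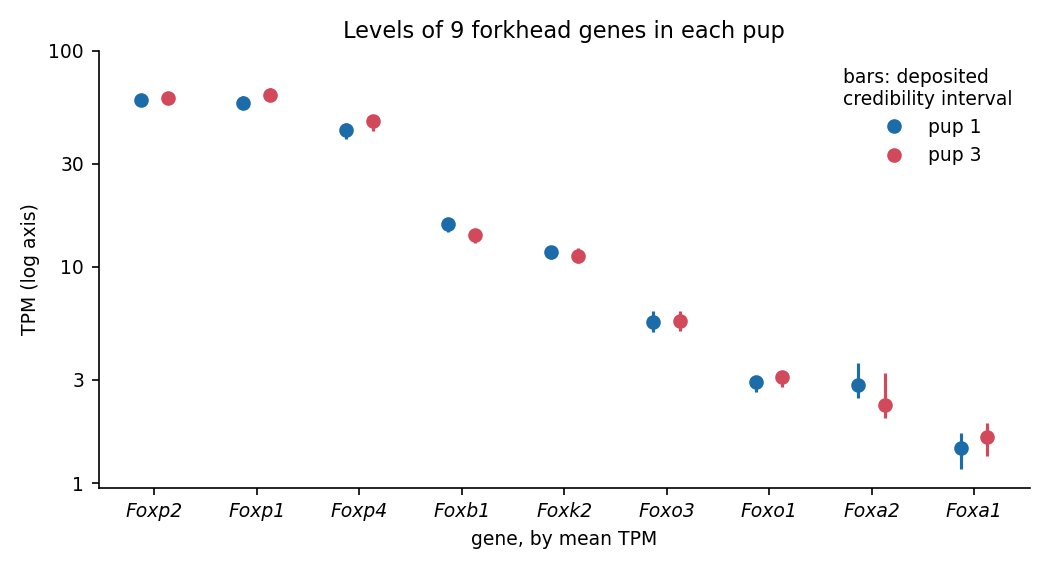
Points are the TPM of each forkhead gene in pup 1 (blue) and pup 3 (red) on a log axis, and bars are the deposited credibility interval of the posterior mean in that library. The genes run from about 60 TPM for Foxp2 and Foxp1 (59.9 each) down to 1.55 for Foxa1, and the pups lie close together for every gene.

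Among the FoxP genes, Foxp2 (ENSMUSG00000029563.12, chromosome 6, 14901349 to 15441977, plus strand, GRCm38) had a level of 59.13 TPM in pup 1 and of 60.75 in pup 3, on 6368 and 7423 counts. Foxp1 (ENSMUSG00000030067.13, chromosome 6, 98925338 to 99522721, minus strand), a partner of Foxp2 that also shapes motor neuron identity, was at 57.31 and 62.52 TPM, on 4077.72 and 5281.08 counts. Foxp2 stood above Foxp1 in pup 1 and below it in pup 3, and their means, 59.9 ± 1.15 and 59.9 ± 3.68 (SD, n = 2), could not be separated. Foxp4 (ENSMUSG00000023991.12, chromosome 17, 47867133 to 47924645, minus strand), the other FoxP gene of the nervous system, was below both in each pup, at 43.20 and 47.12 TPM (45.2 ± 2.77) on 1942 and 2129 counts. The log2 ratio of Foxp4 over Foxp2 was -0.41 ± 0.061 (n = 2), short of the 2-fold size set for calling a pair apart. Foxp3, the FoxP gene of regulatory T cells, had 2.27 and 5.74 counts. These 3 neural FoxP genes held 49.7% ± 0.604 of the summed TPM of the 44 forkhead genes (50.2% in pup 1 and 49.3% in pup 3).

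Foxb1 (ENSMUSG00000059246.4, chromosome 9, 69757710 to 69760940, minus strand) reached 15.75 TPM in pup 1 against 14.01 in pup 3 (14.9 ± 1.23), on 1050.88 and 1021.15 counts. Its counts were not whole because the antisense gene B230323A14Rik, on the other strand, shares reads with it: the counts of the 2 genes summed to 1313 in pup 1 and 1290 in pup 3, whole within 0.005. If all of those reads belonged to Foxb1, its level would be 18.7 TPM. Use of the strand in counting is not given in the sources used here, so the division between the 2 genes is uncertain. Foxk2 (ENSMUSG00000039275.9, chromosome 11, 121259990 to 121309896, plus strand) was at 11.67 and 11.24 TPM (11.5 ± 0.304) on 1286 and 1315 counts. It exceeded its paralogue Foxk1 (3.64 and 4.19 TPM) by 1.53 ± 0.18 on the log2 scale, a pair called apart. On counts not divided by length the Foxk2 over Foxk1 ratio was 0.91, below the size needed for a call.

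Of the FoxO genes, Foxo3 (ENSMUSG00000048756.7, chromosome 10, 42181841 to 42276755, minus strand) led at 5.55 TPM in pup 1 and 5.60 in pup 3 (5.58 ± 0.0354), on 670 and 797 counts. Foxo1 (ENSMUSG00000044167.6, chromosome 3, 52268336 to 52353221, plus strand) was at 2.95 and 3.08 TPM (3.02 ± 0.0919), on 583.41 and 665.75 counts. Foxo3 was higher than Foxo1 in both pups, by 0.87 ± 0.034 on the log2 scale, and the pair was not called apart because the ratio is under 2-fold. The antisense gene Gm20402 overlaps the start of Foxo1, and their counts summed to 613 and 705, again whole. With all of those reads Foxo1 would stand at 3.18 TPM, still below Foxo3. The remaining FoxO genes were lower: Foxo6 was at 1.44 and 1.43 TPM, 1.89 ± 0.016 log2 units below Foxo3, and Foxo4 at 0.41 and 0.56, 3.29 ± 0.25 below. Both of those pairs were called apart.

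The FoxA genes were the lowest of the 9. Foxa2 (ENSMUSG00000037025.7, chromosome 2, 148042877 to 148046969, minus strand) reached 2.84 TPM in pup 1 against 2.29 in pup 3 (2.57 ± 0.389), on 131 counts (95% exact Poisson interval 109.5 to 155) and 110 counts (90.4 to 133). Foxa1 (ENSMUSG00000035451.6, chromosome 12, 57540628 to 57546916, minus strand) was at 1.46 and 1.63 TPM (1.55 ± 0.120), on 104 counts (85.0 to 126) and 127 (106 to 151). Foxa2 exceeded Foxa1 in TPM in both pups, by 0.91 and 0.47 on the log2 scale (mean 0.69 ± 0.32). In reads the order was not stable, with Foxa2 above Foxa1 in pup 1 and below it in pup 3, and the counts of the 2 genes overlapped within their intervals. Foxa3, the FoxA gene of liver and gut, had no read in either pup. Foxa2 over Foxb1 was at -2.496 ± 0.093 on the log2 scale, a pair called apart. These intervals cover counting error only.

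Along the order of mean levels, 6 of 8 neighbouring pairs did not overlap in either the range over the pups or the deposited intervals. The 2 that overlapped were Foxp2 with Foxp1 and Foxo1 with Foxa2. For Foxo1 and Foxa2 the ranges were apart but the intervals met in each library. Foxp2 ranked 2825 and Foxp1 2828 among the 21474 protein-coding genes, while Foxo3 ranked 10283, Foxa2 12001 and Foxa1 12883. Over the 9 genes the middle level was 11.67 TPM for pup 1 and 11.24 for pup 3, against 4.52 and 4.70 for all protein-coding genes. The same limit of choice holds for this comparison, since the 9 were picked with earlier results known. Of the 10 ratios read between forkhead genes, 5 were called apart, the last being Foxp1 over Foxo3 at 3.40 ± 0.080.

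Set in the whole family, the 9 genes held 61.5% ± 1.80 of the summed forkhead TPM, which was 318 in pup 1 and 346 in pup 3. Among the other forkhead genes only Foxn3, a repressor of the FoxN class, reached the level of the FoxP genes, at 53.4 and 63.6 TPM (58.5 ± 7.21). Its values enclosed both those of Foxp1 and those of Foxp2. Foxj3 (20.2 ± 2.87) stood between Foxp4 and Foxb1. Below Foxk2 came Foxj1, which drives motile cilia in ependyma, at 9.25 ± 1.52, then Foxj2 (7.43 ± 0.113), Foxn2 (4.15 ± 0.502), Foxf2 (4.00 ± 0.495) and Foxk1 (3.92 ± 0.389). Foxq1, Foxc1 and Foxs1, genes of vessels and meninges, were at 2.63 ± 0.255, 2.58 ± 0.325 and 2.42 ± 0.509, the level of Foxa2. Over the 35 genes the median level was 0.41 TPM for pup 1 and 0.56 for pup 3, and Foxi3, Foxe1 and Foxi1, like Foxa3, had no read in either pup.

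**Figure D2:**
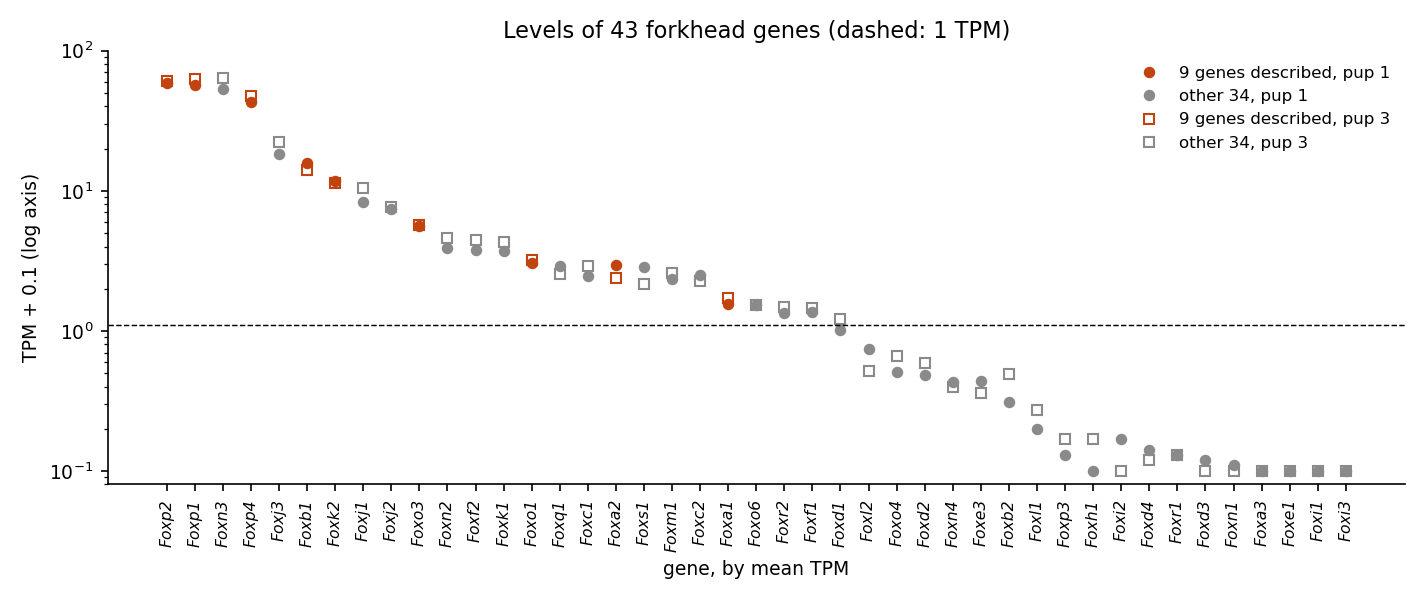
Each column is 1 of 43 forkhead genes, ordered by mean level, with TPM plus 0.1 on a log axis; filled circles are pup 1, open squares pup 3, and orange marks the 9 genes described. Foxp2, Foxp1, Foxn3 and Foxp4 form the upper end, the orange points all lie above the dashed line at 1 TPM, and 19 of the 34 grey genes fall below it in at least 1 pup.

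A gene's TPM can rest on transcripts that make no DNA-binding protein. The 9 genes had 74 transcripts in the tables, of which 73 were matched to GENCODE M21. For each, it was read whether the transcript is annotated as coding and whether its coding sequence holds the recognition helix. Foxa1, Foxb1 and Foxo1 had 1 transcript each, all coding with the helix. Foxk2 was carried at 94.9% ± 2.05 of TPM by the transcript of its protein of 651 residues. The FoxP genes and Foxo3 were more divided.

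**Figure D3:**
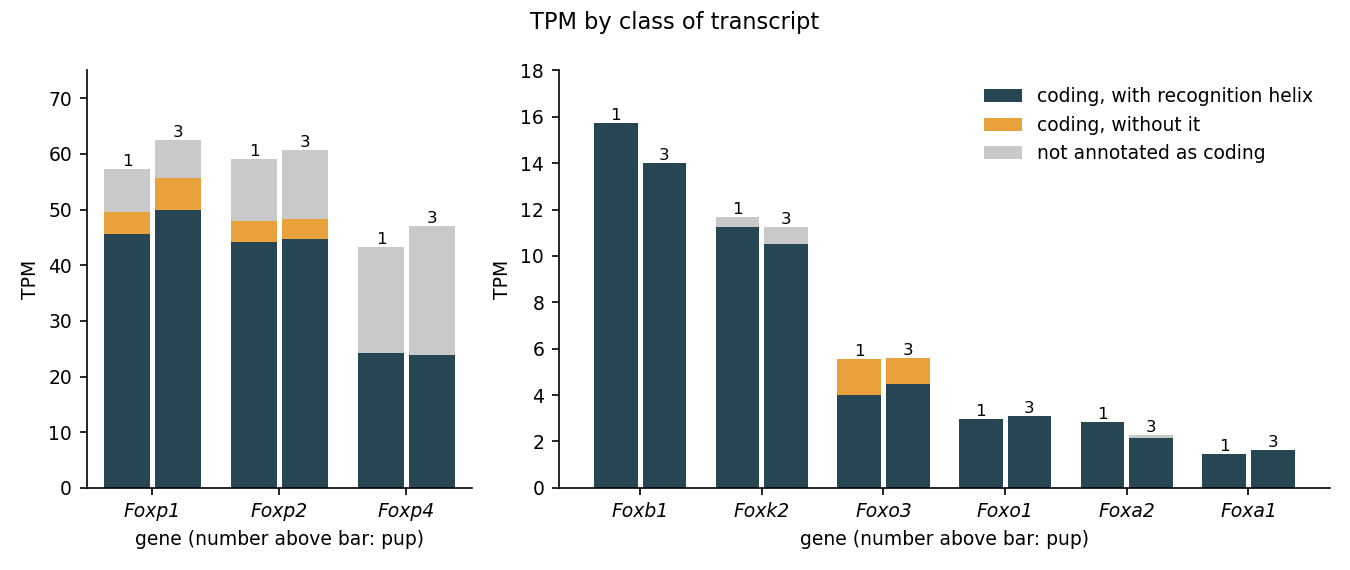
Bars are the TPM of each gene in pup 1 and pup 3, divided into coding transcripts with the recognition helix, coding transcripts without it, and transcripts not annotated as coding. Foxp4 loses the most, with 24.3 TPM in pup 1 and 23.8 in pup 3 left in coding transcripts, while Foxb1, Foxo1 and Foxa1 keep all of theirs; the scales of the panels differ.

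Foxp4 had the largest share outside coding transcripts. A retained-intron transcript of 365 nt (ENSMUST00000154108.1, chromosome 17, 47878480 to 47878953) carried 43.4% of the gene's TPM in pup 1 and 48.7% in pup 3, against 36.7% and 27.6% for the leading coding transcript (ENSMUST00000113262.1, 673 residues). In reads the order was the reverse. The short transcript had 115.34 and 154.24 counts, or 5.94% and 7.24% of the gene, and the leading coding transcript 1136.63 and 1018.52. Since TPM divides by effective length, a short transcript with few reads weighs heavily. Per effective base the retained-intron transcript had 0.434 and 0.580 counts and the leading coding transcript 0.367 and 0.329. The retained-intron transcript holds 166 exonic and 199 intronic bases. Their boundary is shown with 30 bases on each side (chr17:47878725-47878784, minus strand, GRCm38), intron in lower case and exon in capitals. Whether reads crossed this boundary was not examined.

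Foxp4 intron and exon: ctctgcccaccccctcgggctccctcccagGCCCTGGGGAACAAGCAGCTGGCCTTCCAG

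Coding transcripts held 53.4% ± 3.98 of Foxp4 TPM but 93.3% ± 0.986 of its counts. Of the 13343 protein-coding genes that reached 1 TPM in each pup, 9.55% had a coding share of TPM as low or lower, and the median over these genes was 98.8%. From coding transcripts alone, Foxp4 was at 24.1 ± 0.318 TPM, with Foxp1 at 52.6 ± 4.35 and Foxp2 at 48.1 ± 0.290. These FoxP genes held 43.4% ± 0.725 of the coding TPM of the forkhead family, and the 9 genes 56.8% ± 2.10. In coding TPM Foxn3 was the highest of the family in both pups, at 56.8 ± 6.89. On the coding scale Foxp1 exceeded Foxp4 by 1.12 ± 0.14 (log2), where the gene-level ratio was 0.41 ± 0.00021. The coding ratio met the sign, size and SD parts of the rule for a pair called apart, and the gene-level ratio fell short in size. The intervals compared were those of the gene level, since none was compared for summed coding transcripts. Foxp4 over Foxp2 was -0.995 ± 0.028 on the coding scale and -0.41 on the gene scale.

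Foxp1 had 32 transcripts, 16 of them with reads in both pups. By TPM the leader in both pups was the transcript of a protein of 577 residues (ENSMUST00000177229.3, 1848 nt), with 42.2% and 39.9% of the gene's TPM. It was followed by the main transcript of the protein of 705 residues (ENSMUST00000113322.4, 7177 nt), with 17.8% and 29.5%. By reads the longer transcript led, with 1673.02 and 3302.72 counts (41.0% and 62.5%) against 978.46 and 1100.82 (24.0% and 20.8%). So which Foxp1 form leads depends on whether reads are divided by length. The shorter form begins at codon 131 of the longer one, and so lacks the 130 residues before it, ahead of the helix; it has 2 residues more elsewhere. Its first 14 codons (chr6:99016606-99016647, minus strand) are shown with the start codon in capitals.

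Foxp1 start of the 577-residue form: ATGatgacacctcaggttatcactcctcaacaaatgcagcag

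A further Foxp1 form of 673 residues (ENSMUST00000113326.4) differs from that of 705 residues by the absence of 96 bases within 1 exon (chr6:99075950-99076045, minus strand), in which 24 of 32 codons encode glutamine. The stretch is shown with the glutamine codons in capitals, since it is the only coding difference between these transcripts.

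Foxp1 stretch of the 705-residue form: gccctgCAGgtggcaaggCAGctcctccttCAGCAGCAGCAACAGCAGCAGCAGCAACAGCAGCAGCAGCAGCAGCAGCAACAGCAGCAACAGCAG

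The 2 forms moved in opposite directions between the pups. The transcript with the stretch stood at 10.22 TPM in pup 1 (deposited interval 6.96 to 11.1) and 18.47 in pup 3 (13.6 to 19.3), and its intervals did not overlap. The transcript without it was at 6.18 TPM (4.94 to 9.03) and 2.11 (0.895 to 6.48), with overlapping intervals. In counts it had 990.16 in pup 1 and 370.22 in pup 3. The largest shift of any Foxp1 transcript was 11.7 percentage points, and 20.2% of 9744 genes with several transcripts shifted as much or more, with a median of 5.26 points. Transcripts with the helix held 45.55 and 49.95 TPM of Foxp1 (47.8 ± 3.11). Coding forms without it, such as the protein of 348 residues (1.94 and 3.32 TPM), held 4.02 and 5.77.

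Foxp2 was led by its protein of 714 residues, from 2 transcripts that together held 59.9% of TPM in pup 1 and 64.8% in pup 3. They differ in length (ENSMUST00000115477.3, 6760 nt, and ENSMUST00000031545.9, 5647 nt) and had similar shares, 32.8% ± 0.219 and 29.5% ± 3.23. A shorter form, of 693 residues, held 14.8% and 8.75%. A transcript annotated as a target of nonsense-mediated decay (ENSMUST00000115475.4) held 11.4% and 10.4%, on 413.88 and 422.97 counts. Coding transcripts made up 80.2% ± 1.04 of Foxp2 TPM and 89.9% ± 0.153 of its counts. Foxp2 from transcripts with the helix was at 44.21 and 44.69 TPM (44.5 ± 0.339), just below Foxp1 in each pup, so the FoxP order on that scale was Foxp1, Foxp2, Foxp4 in both pups.

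**Figure D4:**
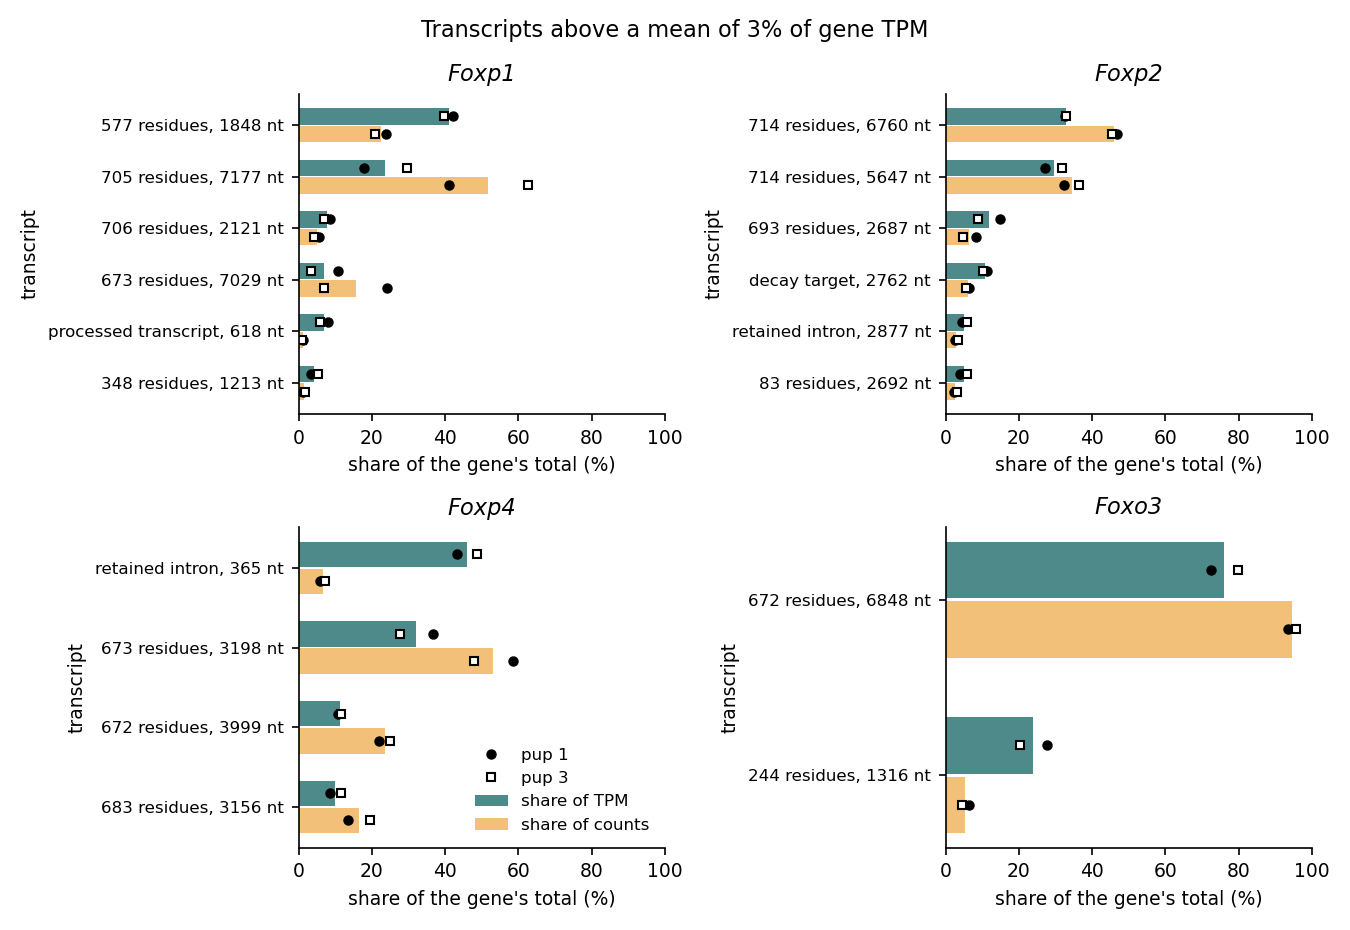
For the transcripts above a mean of 3% of gene TPM, green bars give the mean share of TPM and yellow bars the mean share of expected counts, with pup 1 as filled circles and pup 3 as open squares. The 365-nt Foxp4 transcript has 46.1% of TPM and 6.59% of counts, and in Foxp1 the leader changes from the 577-residue form (41.0% of TPM) to the 705-residue form (51.8% of counts).

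In Foxo3, the transcript of the full protein of 672 residues (ENSMUST00000105502.3) held 72.4% and 79.8% of TPM. The rest went to a transcript of 1316 nt (ENSMUST00000105501.1) whose protein of 244 residues has no recognition helix, with 27.6% and 20.2% of TPM on 43.1 and 34.87 counts. In reads that form was 6.43% and 4.38% of the gene. The coding sequences are the same for 618 bases and part at codon 207, at the exon end inside the helix stretch. Codons 205 to 220 of each form are shown, with capitals from the first codon that differs.

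Foxo3 672-residue form: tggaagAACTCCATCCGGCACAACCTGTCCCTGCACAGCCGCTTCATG
Foxo3 244-residue form: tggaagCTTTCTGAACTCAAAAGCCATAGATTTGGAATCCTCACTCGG

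Counted by transcripts with the helix, Foxo3 was at 4.02 and 4.47 TPM (4.25 ± 0.318), still above Foxo1 in both pups. Both forms of Foxo3 are annotated as coding, so its coding share stayed at 100%.

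Foxa2 showed the largest shift in transcript use of the 9 genes. Pup 1 divided its reads between a protein of 465 residues (ENSMUST00000109964.3, 54.9% of TPM, 70.92 counts) and one of 459 residues (ENSMUST00000047315.5, 45.1%, 60.08 counts). Pup 3 had 94.7% (107.92 counts) and 0%. A shift of 45.1 points or more was seen in 1.098% of genes with several transcripts. The deposited intervals of the transcript of 459 residues nonetheless overlapped, with 0.488 to 2.24 TPM in pup 1 and 7.84e-06 to 1.07 in pup 3, and the posterior mean shares were 43.8% and 15.2%. At 131 and 110 reads over 2 transcripts of nearly the same length, a change of form was not detectable at this depth.

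Between the pups, 0 of the 9 genes differed by more than 2-fold, with a background of 0.383% (51 of 13318 Ensembl genes with a mean of at least 100 counts, 38 of them higher in pup 3). Each animal has 1 library, so no test of this difference is possible. The median absolute log2 difference was 0.13 for the 9 genes and 0.11 for all 13318. On TPM, pup 3 was higher for 6 of the 9 genes and lower for 3. Foxa2 differed the most, with pup 3 over pup 1 at -0.31, followed by Foxb1 (-0.17), Foxa1 (0.16), Foxp1 (0.13) and Foxp4 (0.13), with Foxo3 at 0.013. In counts per library total, the 95% interval of the log2 ratio left out 0 for Foxp2, Foxp1, Foxb1 and Foxa2. Such intervals cover counting error alone and are narrow at high counts, as for Foxp2 at 0.079 (0.030 to 0.127). The share of all genes whose interval leaves out 0 was not computed, so these genes are not shown to stand out. For Foxp4 the ratio in counts was -0.0099, with 0 inside its interval, and its coding TPM was 24.3 in pup 1 and 23.8 in pup 3. The difference in its gene TPM therefore lay in the retained-intron transcript, with 18.75 TPM for pup 1 and 22.96 for pup 3. Scaled by edgeR's TMM factors or DESeq2 size factors, Foxp4 turned to -0.019 and -0.018. On both of those scales Foxa2 still differed the most (-0.40 on each), but the order of the others changed, with Foxp1 second in size (0.22 on each) and Foxo3 at 0.098 and 0.0997.

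**Figure D5:**
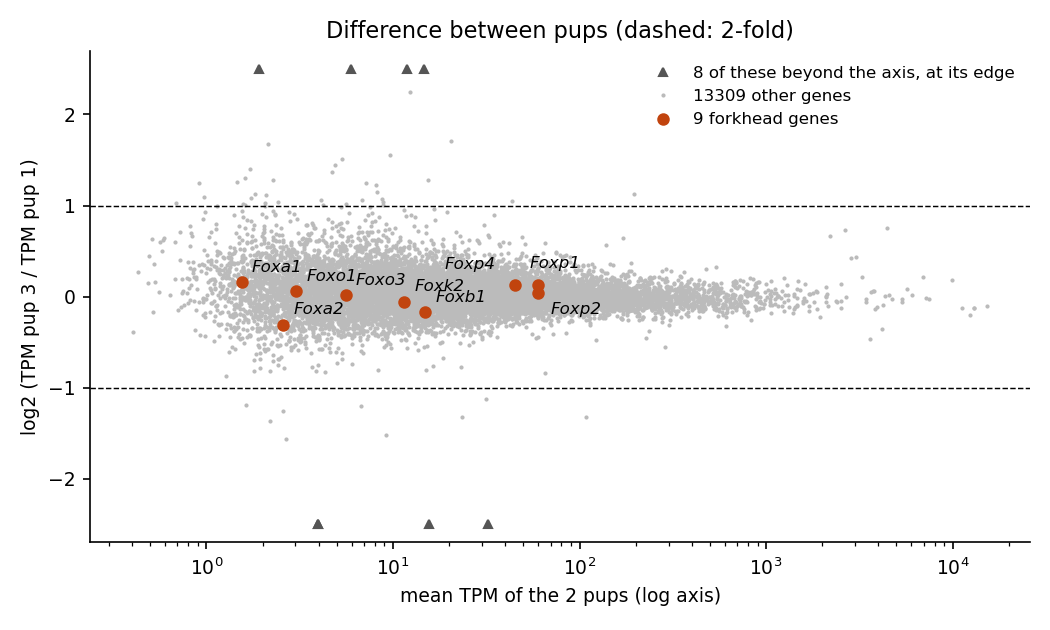
Each point is 1 of 13318 genes, with mean TPM on a log axis and the log2 ratio of pup 3 over pup 1; triangles at the edge are 8 genes beyond the axis. The 9 forkhead genes (orange) lie between -0.31 for Foxa2 and 0.16 for Foxa1, all inside the dashed 2-fold lines.

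Markers of neighbouring regions did differ between the pups. Of the 6 hypothalamic markers, 4 were higher in pup 3 by more than 2-fold: Oxt (4.28 and 20.4 TPM), Avp (124 and 269.7), Hcrt (4.88 and 14.3) and Six6 (1.02 and 3.27). Of the 6 forebrain markers Dlx5 was past 2-fold (2.80 and 5.64 TPM) among the 3 with a mean of at least 100 counts, the summed level was 21 and 24.8 TPM, and Tbr1, below that minimum, was at 0.07 and 0.51 TPM on 6 and 46 counts. Midbrain markers summed to 333 and 320 TPM, with 0 of 7 tested past 2-fold. Of the markers of ependyma and choroid plexus, only 2 of 6 had a mean of at least 100 counts, and neither passed 2-fold. Below that minimum, Ttr, a transport protein of the choroid plexus, was higher in pup 3 by 2.60 on the log2 scale (0.85 and 5.16 TPM, 22 and 146 counts). Among the tested markers of meninges (5), vessels (7), microglia (5) and dividing cells (5), 0 passed 2-fold, and the vessel markers summed to 166 TPM in pup 1 against 144 in pup 3. Foxb1, which is known from the caudal hypothalamus, was lower in pup 3, where those 4 hypothalamic markers were higher. The part of tissue composition in the levels of the 9 genes was not tested.

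The genes that work with each class were read from lists. For the FoxA genes, 11 of 16 floor plate and dopamine neuron genes reached 1 TPM in each pup, with a list median of 5.04 TPM in each pup. The highest were the dopamine-synthesis genes Th (29.8 TPM in pup 1 and 22.3 in pup 3) and Ddc (20.1 and 19.7), then the vesicular monoamine transporter gene Slc18a2 (16.5 and 16.4). The dopamine transporter gene Slc6a3 followed closely on average (20.7 and 12.2). Th and Slc6a3 were lower in pup 3, neither of them past 2-fold. Over the 10 genes of this list with a mean of at least 100 counts, the median log2 difference was -0.045. Corin, a floor plate protease, was lowest at 0.10 and 0.11 TPM. For Foxb1, 8 of 10 mammillary and caudal diencephalic genes reached 1 TPM, led by Tcf7l2 (645 and 726) and Barhl1 (31.5 and 31.6). Sim1, a factor of hypothalamic neurons, was past 2-fold (0.45 and 0.92 TPM) and Sim2 was lowest (0.08 and 0.04).

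For the FoxO genes, all 19 regulators reached 1 TPM in each pup, with a median of 14.5 TPM in pup 1 and 18.6 in pup 3, and 0 of 19 passed 2-fold. The highest were the 14-3-3 genes Ywhaz (1249 and 1262) and Ywhag (675 and 681), whose proteins bind phosphorylated FoxO, and the kinase gene Akt1 (79.3 and 79.3). The deacetylase gene Sirt1 was lowest (2.25 and 3.01). Of 21 FoxO targets 17 reached 1 TPM in each pup, with a median of 20.3 and 20.0 TPM. The autophagy genes Map1lc3b (313 and 285) and Gabarapl1 (242 and 239) led, with the cell cycle inhibitor gene Cdkn1a (239.5 and 222), and Igfbp1, a target studied in liver, was lowest at 3 and 2 counts. None of the 18 targets tested passed 2-fold. These targets have other regulators too, and FoxO activity depends on where the protein lies in the cell, which RNA levels do not measure.

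For the FoxP genes, 17 of 18 listed partners and targets were matched and 14 reached 1 TPM, led by the corepressor genes Ctbp1 (262 and 253) and Hdac2 (172 and 177) and by the chromatin remodeller gene Chd3 (43.6 and 49.8). Tbr1, a cortical partner, was lowest, and 0 of 13 tested passed 2-fold. All 9 FoxK partners reached 1 TPM, led by Sin3b (194 and 196), Bap1 (99.1 and 95.9) and Hcfc1 (25.6 and 27.9), with Asxl2 lowest (5.68 and 7.97). None of these 9 passed 2-fold either.

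RefSeq promoter sequences on GRCm38.p6, 250 bases before to 50 after each start, were given for 7 of the 9 genes, with 11 starts in all. Of these 11, 8 had a CpG observed over expected ratio of 0.6 or more, against 35.8% of all 32851 promoters. The highest ratio was that of Foxk2 (1.28), and the lowest that of the Foxp1 start at chr6:99266466-99266765 (0.282). The forkhead motif TGTTTAC, searched on both strands, was found in 1 of the 11, at Foxa1 (chr12:57546062-57546361), and in 3.65% of all promoters.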

How the data were processed

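Total RNA from the midbrain of 2 pups was sequenced, 1 library each. Per the deposited text record, the authors derived the tables from transcriptome alignments (mm10, GENCODE M4); program, version and use of strand: not given in the sources used here. The authors deposited expected counts, which are estimated and need not be whole, and TPM, which is scaled to a fixed sum over every row after division by effective length. FPKM values the authors deposited served as an alternative scale. The deposited transcript tables give the percent of gene TPM carried by each transcript. Credibility bounds and lengths were taken as deposited (treated as a score with no fixed range, since the interval's level is not stated); the bounds belong to the posterior mean and need not contain the TPM.

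Symbols, transcript types, coding sequences and coordinates came from GENCODE M21 (the same build), matched by identifier without version: 42462 of 43346 Ensembl genes (98.0%) had a symbol, and 70 of 74 transcripts of the 9 genes had the annotated length. Ratios are log2 of TPM plus 0.1. A pair was called apart where both pups had the same sign, the mean was above 1 in size and above 3 SD, and the credibility intervals did not overlap in either pup. With 2 animals, the smallest two-sided p of an exact sign-flip test is 0.5, so none is given. The difference between the pups was taken for genes with a mean of at least 100 counts and called past a log2 size of 1. This step was tested on simulated data. Count intervals are exact Poisson at 95%; they cover counting error alone, because without molecular identifiers reads need not be independent molecules. Expected counts were rounded for the scaling factors of edgeR 4.0.16 (TMM) and DESeq2 1.42.0; the rest was done in R 4.3.3 and in Python 3.11.15 with Biopython 1.88, SciPy 1.17.1, pandas 2.3.3, matplotlib 3.10.9 and numpy 2.4.6.

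The members and lists were chosen with earlier results of these data known. Named are all 9 genes, the 10 highest other forkhead genes and those at 0, and of each list at most the 3 highest, the lowest and those past 2-fold; En2, Hoxb2, Foxp3, Foxo4, Foxo6, Slc6a3, Ttr, Ddx3y and the antisense genes were named after their values were seen. Mint2, on the FoxP list, was not matched, and a few items of these lists are not reported here. The labels say the libraries come from separate animals. Alternatives covered the scale, pseudocount, filters, transcript class and each pup left out.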

Additional observations from a re-analysis of the deposited data

How the results depend on the processing

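The counts of genes at a level and the order of levels kept their calls under most alternatives, some of which could not lower the counts. Those chosen after seeing the data included coding transcripts only, helix transcripts only, all opposite-strand reads given to a gene, and order on other scales. All 9 genes stayed at 1 TPM or more from coding transcripts alone, and 6 reached 5 TPM. The count asks for the level in both pups, so leaving out a pup could not lower it and gives no support. For the forkhead family the count of 24 genes became 10 at 5 TPM. Leaving out each pup, which again could not lower it, gave 24 to 25. Of 9 positions in the order of levels, 7 to 9 were kept under each alternative tried. On counts not divided by length Foxk2 (1286 in pup 1 and 1315 in pup 3) stood above Foxb1 (1050.88 and 1021.15). The other changes exchanged Foxp2 and Foxp1. Called pairs numbered 5, and 6 on counts not divided by length or from coding transcripts, with the gene-level intervals compared in each case. On counts not divided by length Foxp4 over Foxp2 was -1.76. Past 2-fold between the pups were 51 genes, 637 with a mean count of 10 or more and 5536 without a filter. The looser filters admit genes with fewer reads. All 9 forkhead genes already had a mean of at least 100 counts, so their count of 0 could not change with the filter. Under both other scalings, which could have changed it, 0 of the 9 were past 2-fold. The coding share rose as a share of expected counts, to 93.3% from 53.4% for Foxp4, to 89.9% from 80.2% for Foxp2 and to 97.1% from 87.8% for Foxp1, since counts are not divided by length. The levels themselves moved by at least their SD over the pups in 25 of 72 alternatives. The 72 include each pup left out, which with 2 pups can never move a level by its SD. They also include settings that leave a gene as it was, such as coding transcripts only for Foxa1. The share that moved is therefore not a measure of stability. FPKM moved all 9 levels, being another unit. Rescaling without mitochondrial rows moved 4 and the posterior mean 1. The remaining moves came from the transcript class or the opposite-strand reads. No paired analysis was possible because there is only 1 group. Depth limits Foxa1 and Foxa2 the most, at 104 to 131 counts.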
